A study of Mus musculus with 8 samples.

Results

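Long non-coding RNAs that are abundant or imprinted, and the less abundant RNA parts of RNase MRP and RNase P, were examined in rib chondrocytes, the cartilage cells at the ends of the ribs. The 8 genes are *Malat1*, *Neat1*, *H19*, *Meg3*, *Rian*, *Gas5*, *Rmrp* and *Rpph1*, chosen by symbol. Because *Rmrp* is listed under 2 Ensembl identifiers, they take 9 of the 52325 identifiers in each library. All 9 passed the filter on low values, which was at least 0.5 TPM (a level per transcript length, scaled to a sum of 1000000 in each library) in at least 4 of the 8 libraries.

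RNA-seq was performed on costal chondrocytes from 7-d-old mice on a C57BL/6J background, isolated with collagenase, with 4 wild-type and 4 *Mir140*-null libraries. The null allele is a germline deletion of the *Mir140* locus made with CRISPR/Cas9 in zygotes of mixed C57BL/6 and CBA/ca origin. After a backcross to C57BL/6J, crosses of heterozygotes gave a wild-type and a null line, so that other differences between the lines cannot be told apart from the deletion. The sources do not say that each library is a separate animal, and p-values then measure the spread between these libraries. *Mir140*, the deleted gene, was listed at 0 TPM in all libraries except *Mir140*-null replicate 2, at 8.86 TPM. Its level of 0 in the wild-type libraries as well means that these values do not check the labels. Why it was listed at 0 there was not tested.

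As background, *Neat1* is the scaffold of paraspeckles and *Malat1* is retained in nuclear speckles, and the 2 genes lie side by side. *H19* is expressed from the maternal chromosome and its neighbour *Igf2* from the paternal one. *Meg3* and *Rian* are maternally expressed RNAs of the *Dlk1*-*Dio3* imprinted domain. *Gas5* hosts small nucleolar RNAs (snoRNAs) in its introns and is degraded by nonsense-mediated decay. *Rmrp* and *Rpph1* are the RNA parts of RNase MRP and RNase P, are made by RNA polymerase III and lack poly(A) tails. Mutations of human *RMRP* cause cartilage-hair hypoplasia.

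The annotated 3′ ends are shown because the libraries were made by poly(A) selection. Each line gives the last 50 bases of a transcript (GENCODE M21, mm10), with the polyadenylation signal AATAAA or its variant ATTAAA in capitals.
Malat1, chr19:5795690-5795739, minus strand: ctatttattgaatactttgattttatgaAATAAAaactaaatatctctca
Neat1 of 20771 bases, chr19:5824708-5824757, minus strand: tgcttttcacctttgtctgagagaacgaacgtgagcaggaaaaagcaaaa
Neat1 of 3004 bases, chr19:5842307-5842356, minus strand: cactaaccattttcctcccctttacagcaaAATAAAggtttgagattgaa
H19, chr7:142575529-142575578, minus strand: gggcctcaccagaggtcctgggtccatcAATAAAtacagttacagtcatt
Meg3, chr12:109571677-109571726, plus strand: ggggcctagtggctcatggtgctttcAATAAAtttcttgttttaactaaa
Rian, chr12:109654960-109655009, plus strand: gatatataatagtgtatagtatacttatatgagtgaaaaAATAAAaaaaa
Gas5, chr1:161038490-161038539, plus strand: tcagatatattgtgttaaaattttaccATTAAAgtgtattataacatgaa
Rmrp of 271 bases, chr4:43492788-43492837, minus strand: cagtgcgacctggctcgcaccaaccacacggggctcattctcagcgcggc
Rpph1, chr14:50807449-50807498, minus strand: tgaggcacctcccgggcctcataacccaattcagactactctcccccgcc
The signal AATAAA was found in this window of *Malat1*, *H19*, *Meg3*, *Rian* and the 3004-base *Neat1* transcript, and ATTAAA in that of *Gas5*. Neither was found in the windows of *Rmrp*, *Rpph1* or the 20771-base *Neat1* transcript. Of the 134529 annotated transcripts of at least 200 bases, 28.0% held AATAAA in the last 50 bases and 7.41% held ATTAAA alone. A match is a description of letters, was not tested as a site and does not show that an RNA carries a tail.

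Libraries that stood apart were found in the null group. In *Mir140*-null replicates 1 and 2, *Col1a1*, the fibrous collagen gene, was at 47.8 and 50.1 TPM, against 793 to 1544 TPM in the wild-type libraries and 1326 and 898 TPM in replicates 3 and 4. The summed level of the 9 fibroblast and perichondrium markers was 1015 and 1201 TPM in replicates 1 and 2, and 3673 to 6601 TPM in the other 6 libraries. *Mir140*-null replicate 2 had *Xist*, the RNA of the inactive X chromosome, at 272 TPM, and the other 7 libraries had at most 0.339 TPM. *Ddx3y*, a gene of the Y chromosome, was at 0.630 TPM in this library and at 38.8 to 55.6 TPM in the other 7. Mitochondrially encoded genes took 4.06% to 6.99% of the wild-type TPM and 8.41% to 10.1% of the null TPM. Genes whose longest transcript was under 200 bases took 20.7% to 22.7% of the wild-type TPM and 18.9% to 20.8% of the null TPM. Among the 12 chondrocyte markers, *Col2a1* was the most abundant, with 34418 to 61630 TPM in the 8 libraries. Some markers of other cells were also listed. The erythroid list summed to 257 to 1854 TPM, led by the globin gene *Hbb-bs* with 119 to 852 TPM. Of 9 skeletal muscle genes, *Tnnt3* had 28.4 to 73.1 TPM and *Mylpf*, *Acta1* and *Myod1* 1.03 to 20.2 TPM, whereas *Ckm*, *Ttn*, *Myh3*, *Myh8* and *Myog* had at most 0.787 TPM. Of 5 adipocyte genes, *Fabp4* had 27.2 to 76.0 TPM, whereas *Adipoq*, *Plin1*, *Cidec* and *Lep* had at most 0.643 TPM. The 6 endothelial genes summed to 4.86 to 31.3 TPM, led by *Pecam1* with 1.95 to 10.2 TPM. The part of other cells in the results was not tested.

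In wild-type libraries *H19* had the highest level of the 8 genes, 3732 ± 279 TPM (SD, n = 4), which placed it 34th of all identifiers. *Meg3* followed with 1617 ± 35.9 TPM. *Neat1* (873 ± 160 TPM), *Gas5* (818 ± 194 TPM) and *Rian* (779 ± 68.5 TPM) did not differ beyond their spread. *Malat1* was lower, 502 ± 125 TPM, with its highest library within the spread of *Gas5*. *Rmrp*, with both identifiers summed, was at 22.6 ± 8.06 TPM and *Rpph1* at 19.1 ± 2.59 TPM, and these did not differ beyond their spread either. The 9 identifiers together took 0.836% ± 0.0274 of wild-type TPM and 0.873% ± 0.129 of null TPM (SD, n = 4).

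**Figure D1:**
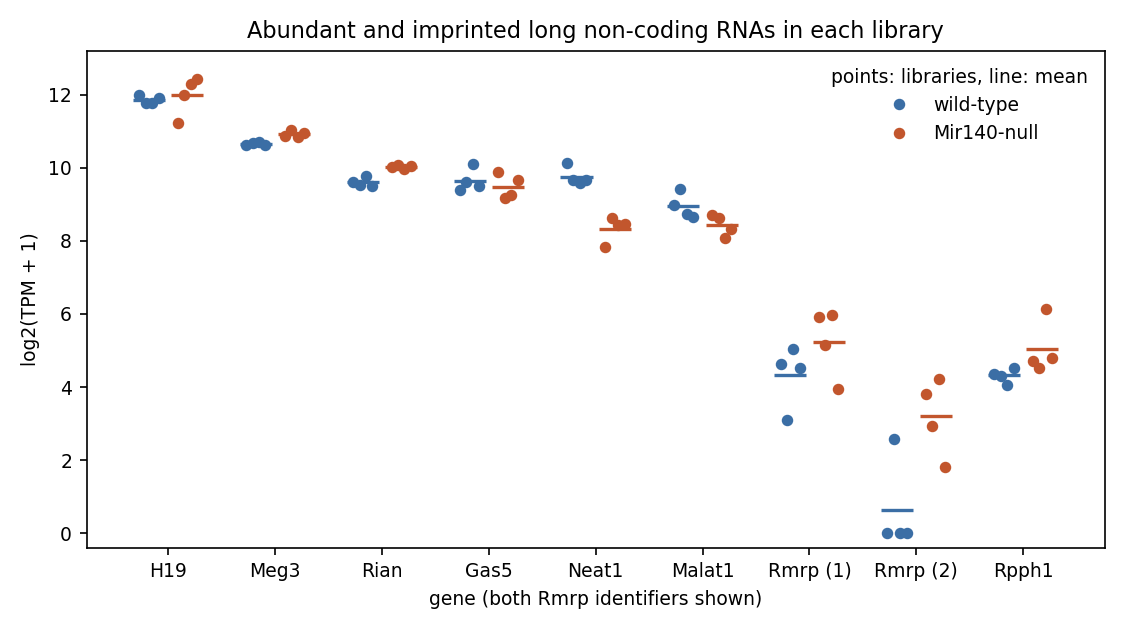
Level of each gene as log2(TPM + 1), with 1 point for each library and a line at the mean of the 4 libraries of a group (blue wild-type, orange *Mir140*-null). The *Rmrp* identifiers are the ribozyme entry (1) and the second entry (2), and *Neat1* is lower in all 4 null libraries than in any wild-type library.

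Genotypes were compared with limma on log2(TPM + 1), two-sided, with Benjamini-Hochberg adjustment over 17177 genes. Of all genes tested, 16.9% passed an adjusted p of 0.05, with 10.5% higher and 6.4% lower in null chondrocytes. Of the 9 identifiers, 3 passed: *Neat1* was lower, and *Rian* and the second *Rmrp* identifier were higher. The last of these met the filter on low values through the null libraries, where it is high, so that its call cannot be set against these shares. Among genes with a mean of at least 100 TPM, 28.2% passed (18.7% higher, 9.53% lower), as did 2 of the 6 abundant members. The groups did not overlap for 25.9% of all genes tested and for 3 of the 9 identifiers, *Neat1*, *Meg3* and *Rian*. These shares are of a few genes and show nothing particular to them as a group. Over the 9 identifiers the median log2 fold change was 0.26, and it was -0.01 over all genes tested. The 9 include both *Rmrp* entries, and the second of them met the filter through the null libraries. Over the 6 members with a mean of at least 100 TPM the median was -0.02, against 0.07 over all genes at that level. Without *Mir140*-null replicates 1 and 2, a choice made after seeing the data, 357 genes were higher and 210 lower in place of 1797 and 1100. With size factors set over genes of mean TPM 5 or more, also chosen after seeing the data, 1094 were higher and 1750 lower, so that the split of calls between directions depends on the scaling.

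**Figure D2:**
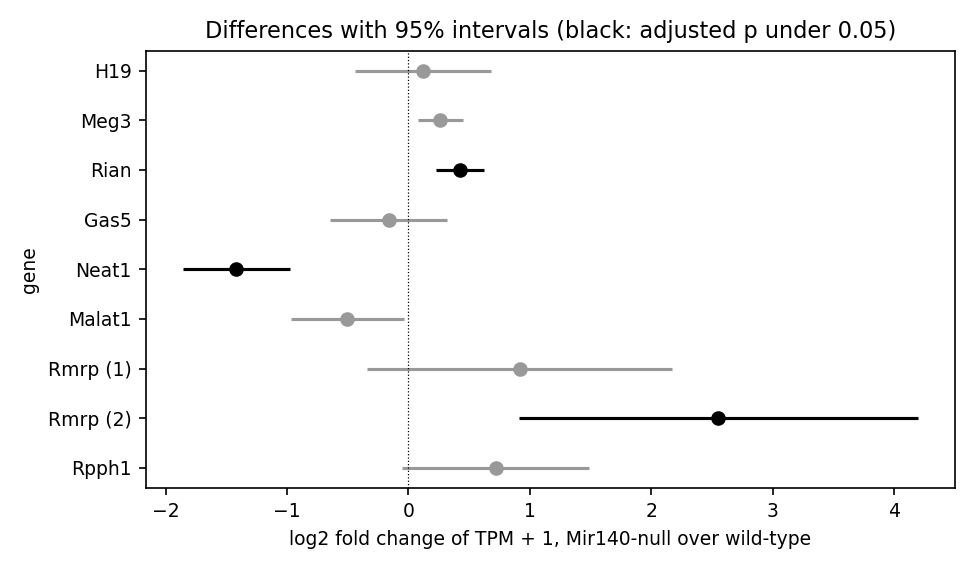
Log2 fold change of TPM + 1, *Mir140*-null over wild-type, with its 95% interval from limma for each of the 9 identifiers. Black marks an adjusted p under 0.05 and grey the rest; the interval of *Neat1* runs from -1.86 to -0.98 and that of *H19* from -0.44 to 0.68.

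*Neat1* (ENSMUSG00000092274), on chromosome 19 of mm10 from 5824708 to 5845478 on the minus strand, was lower in null chondrocytes. Its level was 1110, 816, 758 and 806 TPM in wild-type replicates 1 to 4. In *Mir140*-null replicates 1 to 4 it was 228, 391, 345 and 350 TPM. Every null library was below every wild-type library, and wild-type replicate 1 and null replicate 1 stood farthest apart. The mean fell from 873 ± 160 to 328 ± 70.1 TPM (SD, n = 4), to a ratio of 0.376. This was a log2 fold change of -1.42 with SE 0.19 (limma, Benjamini-Hochberg adjusted p = 0.00651). Without null replicates 1 and 2 it was -1.31 (limma adjusted p = 0.0294), and over 19 other settings it lay between -1.55 and -1.25 with adjusted p between 0.00406 and 0.0427. Whether there was less of this RNA per cell or a change in the cells sampled cannot be told apart in bulk RNA. The TPM are per gene, so the 20771-base and 3004-base transcripts of *Neat1* cannot be told apart either. How much of each passed the poly(A) selection was not tested.

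Annotation splits the *Neat1* region, and the short entries inside it had higher TPM than the gene itself. They are miscellaneous RNA entries on the same strand, identical in sequence to stretches of the long transcript, so reads could be divided between them and *Neat1* and each level is uncertain. They are shown because their summed level, 24295 ± 4579 TPM in wild-type libraries, far exceeded that of *Neat1*. TPM is a level per transcript length, so that few reads can give a high TPM in entries of 110 to 152 bases.
Gm28006, bases 442 to 563 of the 20771-base transcript, chr19:5844916-5845037, minus strand: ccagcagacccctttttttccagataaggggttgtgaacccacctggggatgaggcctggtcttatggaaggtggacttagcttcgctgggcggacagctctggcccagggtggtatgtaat
Gm27505, bases 732 to 841, chr19:5844638-5844747, minus strand: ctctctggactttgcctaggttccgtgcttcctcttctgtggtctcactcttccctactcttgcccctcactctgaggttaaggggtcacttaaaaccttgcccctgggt
Gm27533, bases 1042 to 1193, chr19:5844286-5844437, minus strand: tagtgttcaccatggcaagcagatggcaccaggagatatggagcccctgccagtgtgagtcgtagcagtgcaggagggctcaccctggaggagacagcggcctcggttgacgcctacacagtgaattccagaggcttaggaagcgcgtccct
*Gm27505* and *Gm27533* also lie within the 3004-base transcript of *Neat1*, at bases 564 to 673 and 874 to 1025. In wild-type replicates 1 to 4 *Gm27533* had 16669, 11857, 11364 and 11888 TPM, and in the null replicates 2949, 5224, 5201 and 5095 TPM. The groups did not overlap in any of the 3 entries. All 3 were lower in null chondrocytes, with log2 fold changes of -1.51 for *Gm28006* (limma adjusted p = 0.00707), -1.42 for *Gm27505* (limma adjusted p = 0.00619) and -1.51 for *Gm27533* (limma adjusted p = 0.00758). By the root-mean-square difference of centred log2(TPM + 1) over the 8 libraries, they were also the closest to *Neat1* of the 9467 genes compared, at 0.069 for *Gm28006*, 0.108 for *Gm27505* and 0.0788 for *Gm27533*. Because sequence is shared, this is no independent measure of *Neat1*.

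**Figure D3:**
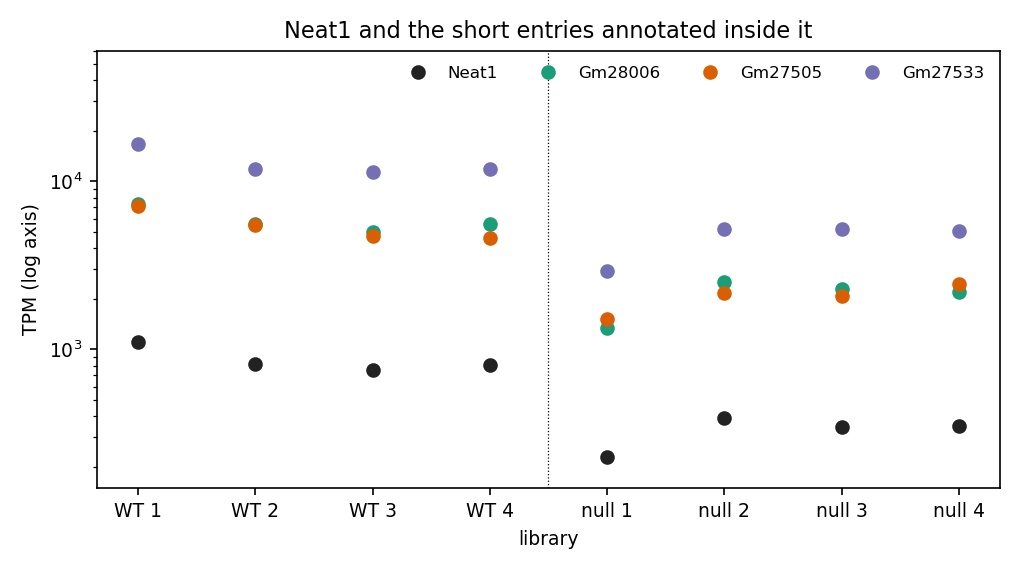
TPM on a log axis in each library for *Neat1* and the short entries annotated inside it, wild-type left of the dotted line and *Mir140*-null right of it. The entries lie above *Neat1* in all 8 libraries and all are lower in the null libraries, with *Gm27533* falling from 11364 or more to 5224 or less.

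*Malat1* (ENSMUSG00000092341, chr19:5795690-5802672, minus strand) was at 504, 677, 426 and 400 TPM in wild-type replicates 1 to 4. Null replicates 1 to 4 had 420, 397, 270 and 318 TPM. The groups overlapped, with null replicate 1 above wild-type replicate 4. The log2 fold change was -0.50 with a 95% interval of -0.97 to -0.04 (SE 0.20, limma adjusted p = 0.122) and did not pass. Without null replicates 1 and 2 it was -0.74 (limma adjusted p = 0.118). The ratio of *Malat1* to *Neat1* in a library was 0.454, 0.83, 0.562 and 0.496 in wild-type and 1.84, 1.02, 0.782 and 0.908 in null replicates 1 to 4. Its log2 difference was 0.92, with p = 0.0571 in a two-sided exact permutation test over 70 assignments and 0.114 after adjustment over 4 ratios. Wild-type replicate 2 lay above null replicate 3. Without null replicates 1 and 2, which had the highest ratios, the log2 difference was 0.57 (exact permutation p = 0.2). With 70 assignments, a single ratio whose groups were fully apart would still have an adjusted p of 0.114 among 4 ratios, so that not passing says nothing of whether the ratio differed. *Frmd8*, a protein-coding gene near *Neat1* and *Malat1*, rose from 6.81 ± 0.714 to 9.42 ± 0.712 TPM (SD, n = 4; limma adjusted p = 0.0483).

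Of 12 genes of paraspeckle proteins tested, 1 was lower and none was higher, with a median log2 fold change of 0.03, where 10.5% of all genes tested were higher and 6.4% lower. The one was *Cpsf6*, a cleavage factor subunit, which fell from 33.1 ± 6.15 to 20.3 ± 4.60 TPM (SD, n = 4; limma adjusted p = 0.0365). *Hnrnpk* was the most abundant, with 692 ± 28.0 and 790 ± 37.6 TPM (limma adjusted p = 0.128). Of 10 genes of nuclear speckle proteins, 2 were higher and none lower, beside the same shares over all genes. *Son*, a speckle scaffold, rose from 72.0 ± 4.00 to 97.7 ± 10.6 TPM (limma adjusted p = 0.0289) and *Thoc2* from 31.7 ± 4.68 to 47.8 ± 8.46 TPM (limma adjusted p = 0.0446). *Srsf3*, with the highest mean over the 8 libraries, was at 213 ± 22.4 and 205 ± 26.3 TPM and did not pass.

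*Rian* (ENSMUSG00000097451, chr12:109603940-109661716, plus strand) was at 780, 730, 875 and 729 TPM in wild-type replicates 1 to 4. It was at 1039, 1070, 1002 and 1062 TPM in the null replicates. All null libraries lay above all wild-type libraries. On the log2 scale the mean was 0.43 higher with SE 0.09 (limma adjusted p = 0.0186), a ratio of 1.34. The call did not hold in 5 of 19 other settings. Left out in turn, wild-type replicate 4 and null replicate 2 gave adjusted p-values of 0.0593 and 0.0541 (limma), and with both null replicates 1 and 2 left out it was 0.0873. With size factors from genes of mean TPM 5 or more, a scaling chosen after seeing the data that lowered the median of all tested genes to -0.11, the log2 fold change of *Rian* was 0.29 (limma adjusted p = 0.071).

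*Meg3* (ENSMUSG00000021268, chr12:109541001-109571726, plus strand) also had groups that did not overlap. Wild-type replicates 1 to 4 had 1587, 1631, 1662 and 1589 TPM and the null replicates 1876, 2104, 1832 and 1963 TPM. The difference did not pass, at 0.26 on the log2 scale with SE 0.08 (limma adjusted p = 0.0553), though it passed in 4 of 19 other settings. Under that scaling over genes of at least 5 TPM it was 0.13 (limma adjusted p = 0.319). The ratio of *Meg3* to *Rian* was 2.03, 2.23, 1.90 and 2.18 in wild-type replicates 1 to 4, and 1.81, 1.97, 1.83 and 1.85 in the null replicates. Null replicates 1, 3 and 4 lay below every wild-type library. Its log2 difference of -0.16 did not pass (exact permutation p = 0.0571, or 0.114 adjusted over 4 ratios). The smallest p that 70 assignments allow is 0.0286.

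In the *Dlk1*-*Dio3* domain, 7 genes were tested, of which 2 were higher and 1 lower, where 16.9% of all genes tested passed in either direction. *Mirg*, the microRNA-bearing RNA at the far end, rose from 48.7 ± 8.93 to 79.7 ± 6.71 TPM (SD, n = 4; limma adjusted p = 0.0169). *Rtl1*, a paternally expressed retrotransposon-derived gene between *Meg3* and *Rian*, fell from 2.56 ± 0.325 to 1.5 ± 0.0741 TPM (limma adjusted p = 0.0236). *Dlk1*, also paternal, was at 402 ± 73.4 and 461 ± 104 TPM and did not pass (limma adjusted p = 0.509), nor did *Dio3*, which encodes a deiodinase of thyroid hormone, with 5.20 ± 1.83 and 3.32 ± 2.35 TPM (limma adjusted p = 0.317). Among short RNAs on the same strand inside *Rian*, 17 are annotated as miRNA or snoRNA genes, 11 were above 0 in some library, 7 were tested and 1 passed. That one was *DQ267102*, a snoRNA gene of 72 bases, with 107 to 135 TPM in the wild-type and 141 to 214 TPM in the null libraries (log2 fold change 0.59, limma adjusted p = 0.0294). Inside *Meg3*, *Mir770* was listed at 0 in all 8 libraries. *Mir1906-1* was at 394 ± 133 and 339 ± 162 TPM, and *Gm27300*, a miscellaneous RNA entry, at 498 ± 87.9 and 430 ± 180 TPM. Neither passed, with log2 fold changes of -0.27 and -0.30. Both are identical in sequence to stretches of *Meg3* transcripts, so reads could be divided between them and *Meg3*. Each level is uncertain and is not that of a mature microRNA. Genes as short as these can move in coarse steps.

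*H19* (ENSMUSG00000000031, chr7:142575529-142578143, minus strand) was at 4057, 3508, 3491 and 3872 TPM in wild-type replicates 1 to 4. In the null replicates it was at 2390, 4077, 5002 and 5493 TPM. The null libraries lay on both sides of the wild-type libraries and varied more, with an SD of 1366 against 279 TPM. The log2 fold change was 0.12 with a 95% interval of -0.44 to 0.68 (limma adjusted p = 0.763). Without null replicates 1 and 2 it was 0.49 (limma adjusted p = 0.0609), and without null replicate 4 it was -0.03 (limma adjusted p = 0.946). *Igf2*, which encodes a growth factor and is its paternally expressed neighbour, was at 3149 ± 279 and 3504 ± 442 TPM (SD, n = 4; limma adjusted p = 0.406). The ratio of *H19* to *Igf2* was 1.17, 1.17, 1.22 and 1.18 in wild-type and 0.797, 1.08, 1.52 and 1.38 in null replicates 1 to 4. Its log2 difference was -0.03 (exact permutation p = 0.914, adjusted over 4 ratios 0.914). The lowest ratios were those of null replicates 1 and 2, and without both of them the log2 difference was 0.29 (exact permutation p = 0.0667, the smallest that 4 against 2 libraries allow). *Mrpl23*, on the other side, was at 1.21 ± 0.672 and 2.06 ± 0.521 TPM and did not pass. Of the 5 genes listed for this domain, 2 were listed at 0 in every library. None of the 3 tested passed in limma, where 16.9% of all genes tested passed in either direction. *Igf2os* had an unadjusted limma p under 0.05, and the share of all genes at that threshold was not counted.

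**Figure D4:**
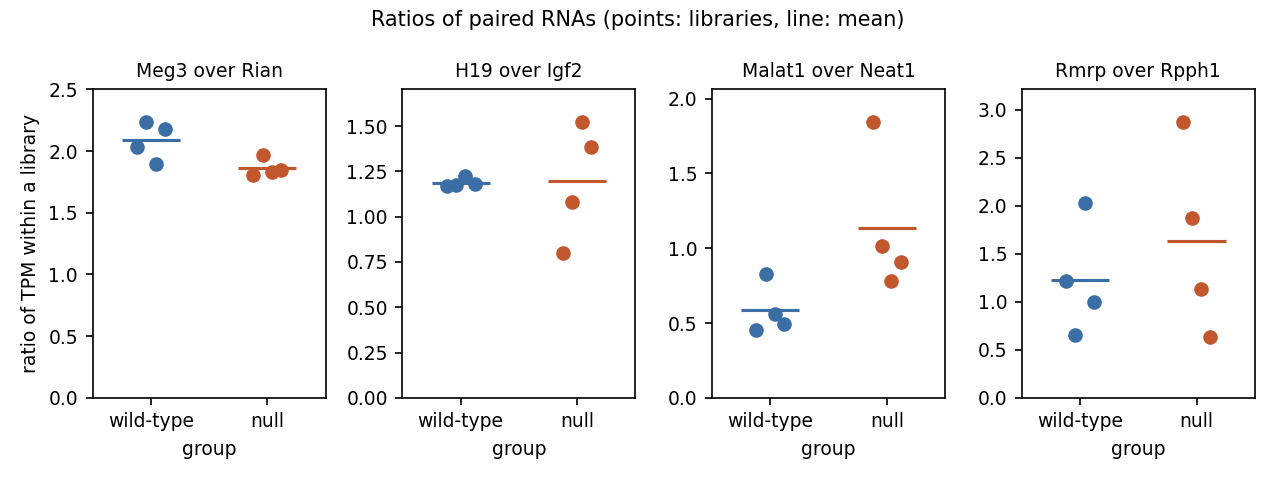
Ratio of TPM of paired RNAs within each library, with points for the 4 wild-type (blue) and 4 *Mir140*-null (orange) libraries and a line at the mean. *Rmrp* is the sum of its identifiers, and the smallest adjusted p was 0.114, which is also the smallest that a single separated ratio can reach here.

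*H19* is the host of *Mir675*, which was listed at 0 in all 8 libraries. Its mature products are shown, with seed bases 2 to 8 in capitals, because poly(A) RNA-seq reads the host and not the mature RNA (RefSeq, GRCm38.p6, minus strand).
miR-675-5p, chr7:142577112-142577133: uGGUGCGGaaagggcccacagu
miR-675-3p, chr7:142577078-142577099: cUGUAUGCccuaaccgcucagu

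The imprinted gene network, a list of 18 growth-related imprinted genes, had 6 lower and none higher, with a median log2 fold change of -0.43, where 6.4% of all genes tested were lower and 10.5% higher. The smallest p was that of *Dcn*, which encodes the proteoglycan decorin and is also a fibroblast marker. It fell from 482 ± 24.7 to 350 ± 55.8 TPM (SD, n = 4; limma adjusted p = 0.0351). *Ndn* fell from 10.7 ± 0.433 to 6.47 ± 1.75 TPM (limma adjusted p = 0.0381) and *Zim1* from 46.2 ± 5.55 to 26.9 ± 7.31 TPM (limma adjusted p = 0.0408). Of the 9 fibroblast and perichondrium markers, 1 was higher and 1 lower, with a median log2 fold change of -0.76, and their summed level was lowest in null replicates 1 and 2. The one that rose was *Pdgfra*, a growth factor receptor, from 16.5 ± 3.38 to 34.2 ± 2.06 TPM (limma adjusted p = 0.00846), and the most abundant, *Col1a2*, was at 1319 ± 319.8 and 917 ± 579.9 TPM and did not pass. Some members of the network were lowest in the same libraries. *Cdkn1c*, a growth inhibitor, had 53.3 and 95 TPM there against 147 and 152 TPM in null replicates 3 and 4. In the wild-type libraries it had 190 to 207 TPM, above all 4 null libraries. *Mest* had 52.1 and 73.7 against 206 and 169 TPM, beside 151 to 345 TPM in the wild-type libraries. Neither passed. Others did not follow this. *Peg3* had 87.8, 141, 90.3 and 103 TPM in null replicates 1 to 4 and *Nnat* 2.82, 5.39, 4.73 and 4.44 TPM, and both were called lower. The part of cell composition in the network was not tested. Of 7 other imprinted genes listed as long non-coding RNAs, 1 was higher and 3 lower, beside the same shares over all genes. *Mcts2*, among these 7, is annotated as protein-coding. The higher gene was *Mirg*, which is also counted in the *Dlk1*-*Dio3* domain. The lower ones include *Kcnq1ot1*, for which the filter favoured a fall. *Snhg14*, the long snoRNA-bearing RNA of the *Snrpn* domain, fell from 592 ± 56.4 to 278 ± 121 TPM (log2 fold change -1.17, limma adjusted p = 0.0222). *Nespas* was also lower. So was *Kcnq1ot1*, with 0.580 to 0.693 TPM in the wild-type and 0.207 to 0.359 TPM in the null libraries, and it met the filter on low values through the wild-type libraries alone.

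*Gas5* (ENSMUSG00000053332, chr1:161034422-161038539, plus strand) was at 668, 778, 1101 and 725 TPM in wild-type replicates 1 to 4. It was at 939, 572, 604 and 810 TPM in the null replicates. The groups overlapped widely, with a log2 fold change of -0.16 and a 95% interval of -0.65 to 0.32 (limma adjusted p = 0.614). Without wild-type replicate 3 the log2 fold change was -0.01. Of 13 snoRNA host RNAs tested, 1 was higher and 1 lower, where 10.5% of all genes tested were higher and 6.4% lower, so that these counts are near the background. *Epb41l4aos* rose from 26.3 ± 1.40 to 51.4 ± 13.8 TPM (SD, n = 4; limma adjusted p = 0.0179) and *Snhg18* fell from 34.6 ± 3.83 to 23.9 ± 2.23 TPM (limma adjusted p = 0.0245). Inside *Gas5*, 10 snoRNA genes are annotated, 6 were above 0 in some library, 2 were tested and none passed at a limma adjusted p of 0.05 or at an unadjusted one.

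Nonsense-mediated decay factors act on *Gas5* transcripts. Of 10 tested, 3 were higher and 1 lower, where 10.5% of all genes tested were higher and 6.4% lower. *Smg1*, the kinase of this pathway, rose from 31.4 ± 5.05 to 52.7 ± 4.24 TPM (SD, n = 4; limma adjusted p = 0.013). *Smg8* rose from 5.99 ± 1.27 to 13.1 ± 2.21 TPM (limma adjusted p = 0.0115) and *Upf1*, the helicase, from 7.81 ± 0.81 to 11 ± 1.08 TPM (limma adjusted p = 0.043). *Upf3b* fell from 7.24 ± 1.85 to 4.38 ± 0.24 TPM (limma adjusted p = 0.0473).

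*Rmrp* is annotated as a 271-base ribozyme (ENSMUSG00000088088, chr4:43492788-43493058, minus strand) and as a 281-base entry (ENSMUSG00000115420) that contains it. The longer one is shown with the bases that the shorter lacks in capitals.
Rmrp of 281 bases, chr4:43492783-43493063, minus strand: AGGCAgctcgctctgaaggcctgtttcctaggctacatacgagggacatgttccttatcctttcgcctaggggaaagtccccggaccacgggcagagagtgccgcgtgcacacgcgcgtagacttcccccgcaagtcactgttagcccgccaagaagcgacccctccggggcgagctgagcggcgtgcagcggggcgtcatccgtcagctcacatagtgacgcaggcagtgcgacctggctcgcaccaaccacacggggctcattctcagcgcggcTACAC
With 5 extra bases at each end, reads cannot be divided between the entries with certainty. In wild-type replicates 1 to 4 the ribozyme entry had 24.0, 7.5, 32.0 and 22.0 TPM, and in the null replicates 59.3, 34.4, 61.2 and 14.4 TPM. The second entry was listed at 0, 4.92, 0 and 0 TPM in the wild-type replicates, and the null replicates had 13.0, 6.69, 17.5 and 2.52 TPM. *Ccdc107*, a protein-coding gene that overlaps *Rmrp*, did not pass, with 8.04 ± 0.903 and 6.66 ± 1.66 TPM (SD, n = 4; limma adjusted p = 0.342). Beside it, *Arhgef39* did not pass either (limma adjusted p = 0.542). Null replicate 4 was low in both entries of *Rmrp*, and the groups overlapped in both. The second entry met the filter on low values through the null libraries, since 3 of the 4 wild-type libraries were at 0, so that a difference was favoured by the filter. It passed (log2 fold change 2.55 with SE 0.72, limma adjusted p = 0.045) and the ribozyme entry did not (log2 fold change 0.92 with SE 0.55, limma adjusted p = 0.276). Without wild-type replicate 2, its lowest library, the ribozyme entry was at 0.50 (limma adjusted p = 0.516), and over the fits that left out 1 library it ran from 0.50 to 1.35. With 3 wild-type libraries listed at 0, the size of the first depends on the pseudocount and was 4.91 with 0.1 in place of 1. The sum of both did not pass either, with 22.6 ± 8.06 and 52.3 ± 28.7 TPM and a log2 fold change of 1.03 (limma adjusted p = 0.179). The call of the second entry was lost in 6 of the 8 fits that left out 1 library: wild-type replicates 1, 3 or 4 (limma adjusted p = 0.103, 0.106 and 0.106) and null replicates 1, 2 or 3 (limma adjusted p = 0.107, 0.0891 and 0.0835).

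*Rpph1* (ENSMUSG00000092837, chr14:50807449-50807767, minus strand) was at 19.7, 18.9, 15.8 and 22.1 TPM in wild-type replicates 1 to 4. It was at 25.2, 22.0, 69.3 and 26.5 TPM in the null replicates. Null replicate 3 was far above the others, and null replicate 2 was within the wild-type range. The log2 fold change was 0.72 with SE 0.34 (limma adjusted p = 0.173). It was 0.35 without null replicate 3 (limma adjusted p = 0.131) and 1.14 without null replicates 1 and 2 (limma adjusted p = 0.131). The ratio of *Rmrp* to *Rpph1* ran from 0.657 to 2.03 in wild-type and from 0.637 to 2.87 in null libraries (log2 difference 0.31, exact permutation p = 0.657, adjusted over 4 ratios 0.876). *Parp2*, 74 bases away from *Rpph1*, had 83.1 ± 15.4 and 63.1 ± 27.1 TPM (SD, n = 4), and *Ttc5* on the other side 10.1 ± 1.65 and 7.55 ± 1.43 TPM. Neither passed.

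Both RNAs lack poly(A) tails, so that their level in these libraries also depends on how much passed the selection, whose part was not tested. Of 8 other structural RNAs without tails that were tested, none passed in either direction by limma at an adjusted p of 0.05. Of all genes tested, 10.5% were higher and 6.4% lower at that threshold. None of the 8 had an unadjusted limma p under 0.05 either. *Rn7s1*, the most abundant, had 638, 244, 249 and 499.9 TPM in wild-type replicates 1 to 4 and 409.8, 224, 552 and 208 TPM in the null replicates. Of 10 genes of RNase P and RNase MRP proteins tested, none passed in limma, beside the same shares over all genes. An unadjusted limma p under 0.05 was found for 3 of them, and the share of all genes at that threshold was not counted. *Rpp14*, with the highest mean over the 8 libraries, was at 13.1 ± 1.65 and 18.4 ± 3.39 TPM (SD, n = 4; limma adjusted p = 0.0754).

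Of all 2115 long non-coding RNA genes tested, 68 were higher and 284 lower, with a median log2 fold change of -0.20. The share that passed was 16.6%, against 16.9% of all genes. By direction these calls were mostly lower, whereas 10.5% of all genes tested were higher and 6.4% lower, a split that depends on the scaling. The number of genes of any kind that reached 0.5 TPM was lowest in null replicates 1 and 2, at 15800 and 16056. It was 17435 and 16991 in null replicates 3 and 4 and 17128 to 17950 in the wild-type libraries, and the part of this in these counts was not tested. Among the 49 long non-coding RNA genes with a mean of at least 100 TPM, 8 were higher and 5 lower, with a median of 0.07. This was 26.5% of them, against 28.2% of all genes at that level (18.7% higher and 9.53% lower). Of 11 other named long non-coding RNAs tested, 2 were higher and 2 lower, where 10.5% of all genes tested were higher and 6.4% lower. *Mir22hg*, the most abundant, was at 59.0 ± 7.19 and 59.7 ± 5.99 TPM (SD, n = 4; limma adjusted p = 0.923). *Mir17hg*, the host of the miR-17 cluster, rose from 1.48 ± 0.307 to 4.67 ± 1.34 TPM (SD, n = 4; limma adjusted p = 0.00984) and *Pvt1* from 8.71 ± 2.71 to 16.3 ± 2.36 TPM. *Firre* fell from 35.5 ± 4.94 to 24.6 ± 0.405 TPM and *Dleu2* from 19.7 ± 5.67 to 10.2 ± 2.45 TPM. Of 7 miRNA host RNAs tested, 1 was higher and 1 lower, beside the same shares. The higher one was again *Mir17hg*, which is counted in both lists. *Mir155hg* fell from 19.1 ± 5.85 to 5.43 ± 1.55 TPM (limma adjusted p = 0.00789), and *Wwp2*, the host gene of *Mir140*, was at 380 ± 55.8 and 340 ± 56.5 TPM (limma adjusted p = 0.487).

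The seed match of miR-140-3p as RefSeq annotates it, the 7 letters CTGTGGT on the transcript strand (the reverse complement of bases 2 to 8), was counted in the longest transcript of each gene. Matches of the form of this microRNA with a shifted seed and of miR-140-5p were not counted. There were 6 in *Neat1*, 3 in *Meg3* and 2 in *Rian*, and 0 in *Malat1*, *H19*, *Gas5*, *Rmrp* and *Rpph1*. Per kilobase this was 0.289 in *Neat1*, 0.206 in *Meg3* and 0.247 in *Rian*, against 0.141 over the longest transcripts of all genes. Of 48631 such transcripts of at least 200 bases, 22.9% held a match. A match was not tested as a site.

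The genes closest to the others in pattern over the 8 libraries, by the same root-mean-square difference, were *Secisbp2*, *Sar1a* and *Wee1* for *Meg3* (0.0512 to 0.0534), and *Abhd17b*, *Mff* and *Gopc* for *Rian* (0.0638 to 0.0686). For *H19* they were *Git2*, *Metrn* and *Vwa5a* (0.117 to 0.127), and for *Malat1* *Gm23136*, *Leng8* and *Gm11611* (0.13 to 0.204). *Gas5* was closest to *1700021F05Rik*, *Lrpprc* and *Gm10163* (0.164 to 0.175), and *Rpph1* to *Med6*, *Kat2b* and *Ngdn* (0.298 to 0.311). The ribozyme entry of *Rmrp* was closest to *Gm15452*, *Gm42533* and *Hat1* (0.467 to 0.555), and its second entry had none nearer than *Chil1*, *Mgst2* and *Mmp12* (0.891 to 0.897).

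**Figure D5:**
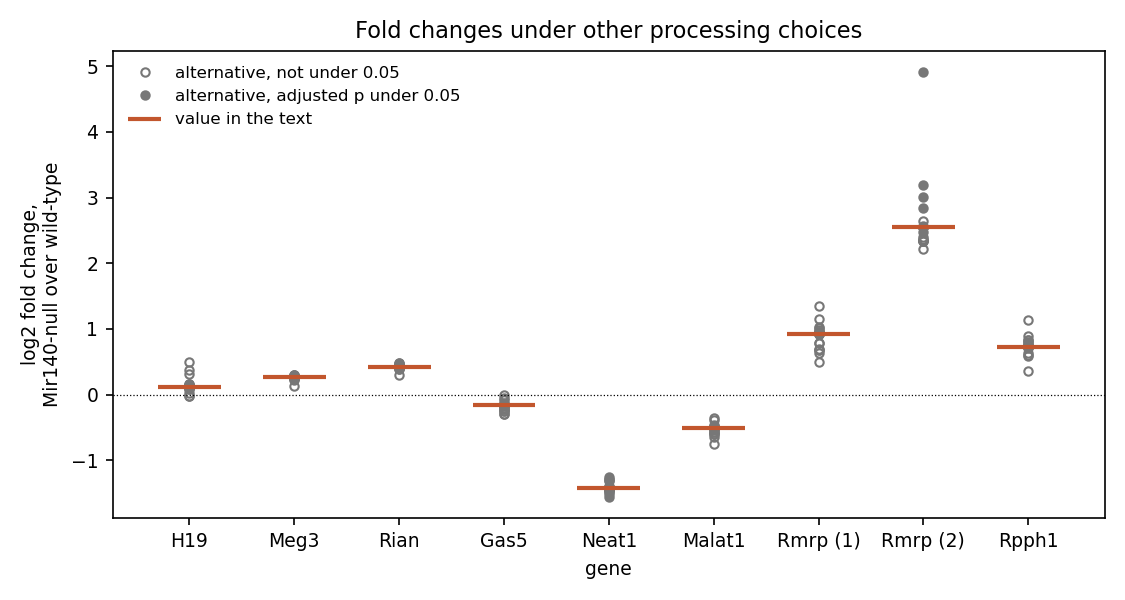
Log2 fold change, *Mir140*-null over wild-type, of each identifier as given in the text (orange line) and under the other processing choices (grey circles, filled where the limma adjusted p was under 0.05). *Neat1* lies between -1.55 and -1.25 and is filled throughout, whereas *H19* crosses 0.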

How the data were processed

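Total RNA of the 8 libraries was prepared as stranded poly(A) libraries, sequenced single-end and mapped by the authors to the mm10 transcriptome with Salmon. The authors deposited TPM per Ensembl gene and library, scaled to transcript length and a total of 1000000. The submitters' notes also name FastQC 0.11.7 and DESeq2. TPM keep no read counts, so the depth of each library could not be read from the values and no counting error was computed. Each of the 52325 identifiers was counted once (540 repeated lines). GENCODE M21 named 99.8% of them. limma 3.58.1 in R 4.3.3 was run on log2(TPM + 1) with a mean-variance trend, two-sided, Benjamini-Hochberg adjusted, after dropping genes that did not reach 0.5 TPM in 4 libraries. The script was tested on simulated data. The exact permutation test used the 70 assignments of libraries to groups of 4. Python 3.11.15, NumPy 2.4.6, pandas 2.3.3 and matplotlib 3.10.9 were used. Fold changes on this scale understate the change of low genes. Transcript sequences came from GENCODE M21 and microRNA sequences from RefSeq GRCm38.p6. Snhg7, Snhg16, Rn7s2, Oip5os1, Norad and Cyrano were listed but are not analysed here.

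The members and gene lists were chosen with earlier results of these data known. Named genes were the 8 members, the most abundant gene and up to 3 called genes per direction of each list, neighbouring protein-coding genes (some are not reported here), and the 3 genes closest in pattern. Others, such as Col1a1, Cdkn1c, Mest, Peg3, Nnat, Gm27300, Igf2os, Eif2s3y and further cell markers, were chosen after their values were seen. Lists of adipocyte, osteoblast, skeletal muscle, erythroid, macrophage, hypertrophic and sex-linked genes were also counted. The alternatives were a pseudocount of 0.1, no filter, a mean of 5 TPM, 3 scalings, a block, 1 factor of unwanted variation, sample weights and leaving out each library. Size factors depend on the genes that set them: over genes above 0 in every library they moved the null group little, and over genes of at least 5 TPM they moved it more, so the second was added after seeing the data, as were leaving out both null libraries low in Col1a1 and summing the Rmrp identifiers.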

Additional observations from a re-analysis of the deposited data

Results flagged for a closer look

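In 3 of 28 groups of 4 libraries, 1 library stood so far from the others that its gap to the nearest, as a share of the range, passed the 95% critical value of Dixon. Chance flags about 1 in 20 groups. *Neat1* in wild-type replicate 1 was at 1110 TPM, against 758 to 816 TPM in the other wild-type libraries, and the log2 fold change without it was -1.30 (limma adjusted p = 0.0172). *Rpph1* in *Mir140*-null replicate 3 was at 69.3 TPM against 22.0 to 26.5 TPM in the others. The second *Rmrp* entry was at 4.92 TPM in wild-type replicate 2 and listed at 0 in the other wild-type libraries. With those all at 0, any value above 0 would have been flagged, so that this flag cannot be set against chance. What set these libraries apart was not tested.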

How the results depend on the processing

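*Neat1* stayed lower and past the threshold in all 19 alternatives, and *Malat1*, *Gas5*, *Rpph1* and the ribozyme entry of *Rmrp* kept their direction and did not pass in any. Leaving out 1 library at a time gave log2 fold changes of -0.028 to 0.37 for *H19*, 0.40 to 0.48 for *Rian*, 2.22 to 3.19 for the second *Rmrp* entry, -0.16 to 0.15 for the ratio of *H19* to *Igf2* and -0.029 to 0.69 for that of *Rmrp* to *Rpph1*. Genes called numbered 779 to 1553 higher and 419 to 1214 lower, and the number higher moved by over 1.5 times without wild-type replicates 1, 3 or 4 or null replicates 1 or 2, the number lower without any wild-type replicate or null replicates 1 or 2. *Meg3* passed with a mean of at least 5 TPM (0.26, limma adjusted p = 0.0300), quantile normalization (0.29, 0.0334), 1 factor of unwanted variation (0.26, 0.0362) and sample quality weights (0.26, 0.0425). The second *Rmrp* entry did not pass with no filter (2.55, 0.0994) or with weights (2.40, 0.0637). The cause was not tested.

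With no filter 977 genes were higher and 539 lower. With a mean of at least 5 TPM 1643 were higher and 605 lower, and with 1 factor 2460 were higher and 2016 lower. Alternatives chosen after seeing the data follow. Without *Mir140*-null replicates 1 and 2, 357 genes were higher and 210 lower, *Rian* was at 0.41 and the second *Rmrp* entry at 2.37 (limma adjusted p = 0.0873 and 0.206), and the ratios of *H19* to *Igf2*, *Rmrp* to *Rpph1* and *Malat1* to *Neat1* were at 0.29, -0.41 and 0.57. Scaling over genes with a mean of at least 5 TPM gave 1094 higher and 1750 lower, against 1797 and 1100, with *H19* at -0.015 and *Rian* at 0.29. It moved the median of all genes to -0.11.

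Libraries share replicate numbers, and the sources do not say whether these pair them. The correlations of the deviations of same-numbered libraries were 0.0308, 0.016, 0.0689 and -0.00911, and not every library correlated best with its own number. Such correlations cannot decide whether the libraries were paired. With the replicate block, 671 genes were higher and 454 lower, *Neat1* was at -1.42 (limma adjusted p = 0.0427), *Rian* at 0.43 (0.0718) and the second *Rmrp* entry at 2.55 (0.0756). With 4 libraries a group and no depth in TPM, small differences and counting error could not be measured.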

Other observations

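Of 7 macrophage and leukocyte genes tested, 1 was higher and 2 lower, where 10.5% of all genes tested were higher and 6.4% lower. *Cd14*, a receptor for bacterial lipopolysaccharide, rose from 16.9 ± 3.49 to 75.6 ± 41.8 TPM (SD, n = 4; limma adjusted p = 0.0174), with 116 and 107 TPM in *Mir140*-null replicates 1 and 2 and 40.2 and 38.9 TPM in replicates 3 and 4. *Itgam* and *Lyz2*, other myeloid markers, were lower and under 3 TPM in every library. *Lyz2* had 0.881 to 1.51 TPM in the wild-type and 0.0455 to 0.617 TPM in the null libraries. It met the filter on low values through the wild-type libraries, so that a fall was favoured and its call cannot be set against these shares. None of the tested hypertrophic chondrocyte (5), osteoblast (5), skeletal muscle (4), erythroid (5), endothelial (5), adipocyte (1) and sex-linked (4) genes passed at a limma adjusted p of 0.05. At an unadjusted p of 0.05 there were 1 hypertrophic, 1 osteoblast and 2 skeletal muscle genes, and 0 in the other lists. The share of all genes tested at that unadjusted threshold was not counted, so that these counts have no background beside them. The 4 sex-linked genes tested are genes of the Y chromosome that were nearly absent from *Mir140*-null replicate 2, the library with *Xist*: *Eif2s3y* was at 0.0286 TPM there and at 30.9 to 52.4 TPM in the other 7 libraries. *Spp1*, the most abundant hypertrophic gene, was at 141 ± 32.1 and 150.1 ± 41.4 TPM (SD, n = 4), and *Alpl*, that of the osteoblast list, at 8.35 ± 5.39 and 3.8 ± 2.87 TPM. Of 12 chondrocyte genes tested, 1 was higher and 3 lower, beside the same shares: *Acan* rose from 552 ± 105 to 1010 ± 98.5 TPM (limma adjusted p = 0.0107), and *Hapln1*, *Col9a1* and *Col11a1* were lower.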
